A study of Mus musculus with 8 samples.

Results

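The 10 genes described here encode the main steps of MHC class I antigen presentation: the classical heavy chains H2-K1 and H2-D1, their light chain B2m, the peptide transporter and loading genes Tap1, Tap2 and Tapbp, the immunoproteasome subunits Psmb8, Psmb9 and Psmb10, and the transactivator Nlrc5. The rule that chose them names genes by this function and uses no measured value, although it was set with earlier results of these data known. All 10 were found among the 24346 gene symbols of the RNA sequencing. Expression was measured in 8 libraries from cultured bone marrow cells of wild-type C57BL/6 mice, 2 libraries in each of 4 groups. HSCs (hematopoietic stem cells, sorted as Lin- Sca-1+ c-Kit+ CD48- CD150+) and LSK cells (Lin- Sca-1+ c-Kit+, a wider gate that holds HSCs together with multipotent progenitors) were kept for 1 day in medium with thrombopoietin and stem cell factor, either alone or cocultured with RBCs. The RBCs came from peripheral blood and had been depleted of leukocytes and irradiated, and after culture they were lysed and CD45+ cells were sorted for RNA. Thus all 4 groups shared the cytokines, the lysis step and the second sort, and they differed in the starting gate and in the presence of RBCs. No source used here says whether the 2 libraries of a group came from separate animals or cultures, so the p-values measure the spread between libraries, which may be technical.

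MHC class I molecules display peptides from inside the cell on the surface of nearly all nucleated cells, where CD8 T cells and NK cells read them. Proteasomes cut proteins into peptides, TAP1 and TAP2 together carry the peptides into the endoplasmic reticulum, tapasin (Tapbp) bridges the transporter to the empty heavy chain bound to beta-2 microglobulin, and loaded complexes move to the surface. Interferons induce most of these genes, through IRF and STAT factors and through NLRC5, and hematopoietic cells, stem cells included, express class I molecules.

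In GENCODE M21 (GRCm38) 7 of the 10 genes lay on chromosome 17, in the mouse MHC. H2-K1 was annotated at chr17:33996017-34000347 on the minus strand, Tapbp at chr17:33915899-33929292 on the plus strand and H2-D1 at chr17:35262730-35267499 on the plus strand. Psmb9 (chr17:34181987-34187764, minus strand), Tap1 (chr17:34187553-34197225, plus strand), Psmb8 (chr17:34197721-34201454, plus strand) and Tap2 (chr17:34203527-34216321, plus strand) formed a block of neighbours. B2m was on chromosome 2 (chr2:122147686-122153083, plus strand), and Psmb10 (chr8:105935735-105938444, minus strand) and Nlrc5 (chr8:94434356-94527272, plus strand) were on chromosome 8. The cDNA kit used does not mark strand, so reads of overlapping genes could not be told apart. This touched Tap1 and Psmb9, which overlap head to head at their starts, Tap2 and Psmb8, which are overlapped by the antisense gene Gm20496, and Tapbp, which is overlapped by the antisense gene Gm19412. The files list no value for either antisense gene. Of the 50-base windows of the longest coding transcript, 21.0% in Tapbp also occurred in transcripts of other genes, mostly Gm19412, as did 12.6% in Tap2, mostly Gm15821 and Gm20496 on its other strand. In Psmb9 12.5% were shared, all with Tap1, in Tap1 6.47% and in Psmb8 5.83%. In H2-K1 8.79% of the windows were shared, most of them with H2-D1, and in H2-D1 14.3%, with H2-Q1, H2-Q7, H2-Q6 and H2-K1. No window of B2m, Psmb10 or Nlrc5 was shared, although B2m and Psmb10 have genes on the other strand, Patl2 and Gm16156, and Nlrc5 also has overlapping genes.

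The promoters of the class I chains are shown because interferon and NF-kB response elements upstream of these genes are the textbook route of their control. RefSeq promoter windows (GRCm38.p6), here the 250 bases before the annotated start, were at hand for 8 of the 10 members; Tap2 and Nlrc5 had none. In the first 3 sequences capitals mark the letters of an IRF core, AANNGAAA, read on either strand. H2-K1 is chr17:34000348-34000597 on the minus strand, H2-D1 is chr17:35262844-35263093 on the plus strand and B2m is chr2:122147437-122147686 on the plus strand. The last sequence is the stretch of 225 bases between the RefSeq starts of Tap1 and Psmb9, chr17:34187331-34187555, read on the strand of Tap1, and its capitals mark a CCAAT box.
H2-K1: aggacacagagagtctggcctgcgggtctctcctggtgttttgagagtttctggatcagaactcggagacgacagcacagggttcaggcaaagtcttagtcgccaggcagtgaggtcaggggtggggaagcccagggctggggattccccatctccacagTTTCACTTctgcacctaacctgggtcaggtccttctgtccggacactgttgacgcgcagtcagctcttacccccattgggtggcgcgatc
H2-D1: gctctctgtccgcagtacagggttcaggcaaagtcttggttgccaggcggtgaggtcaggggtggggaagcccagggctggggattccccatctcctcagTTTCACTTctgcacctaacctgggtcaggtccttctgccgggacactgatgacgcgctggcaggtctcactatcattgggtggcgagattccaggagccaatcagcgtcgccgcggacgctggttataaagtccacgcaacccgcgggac
B2m: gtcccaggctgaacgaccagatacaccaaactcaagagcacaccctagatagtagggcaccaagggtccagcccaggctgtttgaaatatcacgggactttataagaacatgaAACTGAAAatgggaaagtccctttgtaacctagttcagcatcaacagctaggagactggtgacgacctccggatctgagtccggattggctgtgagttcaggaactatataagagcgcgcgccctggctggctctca
Tap1 and Psmb9: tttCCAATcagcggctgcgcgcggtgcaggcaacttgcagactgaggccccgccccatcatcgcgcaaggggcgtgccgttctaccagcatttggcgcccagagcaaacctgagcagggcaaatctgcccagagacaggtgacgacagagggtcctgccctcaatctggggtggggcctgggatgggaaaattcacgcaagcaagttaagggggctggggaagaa

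H2-K1 and H2-D1 shared an unbroken run of 47 bases, which began 141 bases before the start of H2-K1 and 201 bases before that of H2-D1 and held the letters of an NF-kB site, GGGNNTTCC. An IRF core occurred in 3 of the 8 members with a window, H2-K1, H2-D1 and B2m, and in 21.3% of all 32851 promoter windows of the same length. The NF-kB letters were in H2-K1 and H2-D1, and in 4.98% of all windows. H2-K1 and H2-D1 held the same letters for both motifs, TTTCACTT and GGGGATTCC, within promoters that are alike, so they are not separate cases. A CCAAT box, the letters bound by NF-Y, was in 6 members (H2-K1, H2-D1, B2m, Tap1, Tapbp and Psmb9) and in 33.8% of all windows. The boxes of Tap1 and Psmb9 are the same site, 222 bases before Tap1 and 8 before Psmb9, so these members are not separate cases. The letters of a STAT site, TTCNNNGAA, were found in Psmb8, in the stretch before its start, and in 7.02% of all windows. Both strands were searched, and no match shared a base with a match of another motif. GENCODE M21 starts H2-D1 and Psmb9 further upstream than RefSeq, so the H2-D1 window and the stretch between Tap1 and Psmb9 lie within its gene models. These matches describe the letters in the windows, and none was tested for function here.

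The deposited value was FPKM, a fragment count divided by transcript length and by library size, so that levels can be compared between genes per unit of length. Each library summed to 680942 to 752107 FPKM and had 14829 to 16551 genes above 0. The absolute read depth is not given. Relative depth, read from the smallest steps of low values and with LSK control library 1 set to 1, ranged from 0.886 to 1.13, and the log2 values of the 2 libraries of each group had a Pearson r of 0.979 to 0.983 across genes. The gates were visible in the RNA: on the log2 scale and averaged over culture conditions, Cd48 was 2.31 higher and Flt3 2.26 higher in LSK cells, and Slamf1, which encodes CD150, was 0.81 lower. Lists of markers of other cells were low or moved with the groups. The summed FPKM of 8 neutrophil markers was 8.54 to 10.6 in HSCs alone, 45.9 to 252 in HSCs with RBCs, 128 to 218 in LSK cells alone and 359 to 561 in LSK cells with RBCs. That of 8 monocyte or macrophage markers was 91.1 to 116, 111 to 118, 72.5 to 84.1 and 159 to 164 in the same order. Cd68, at 43.8 to 107 FPKM, weighed on this sum, and C1qa was at 0 in all 8 libraries. Csf1r rose with RBCs, from 2.53 and 2.81 FPKM to 7.07 and 9.37 FPKM in HSCs. In LSK cells Csf1r rose from 14.1 and 22.8 FPKM to 47.2 and 54.3 FPKM, and Ccr2 from 7.61 and 4.57 FPKM to 34.4 and 35.0 FPKM. Of 5 tested, 1 passed as higher in HSCs (1.57% of all genes) and 2 in LSK cells (2.32%), 0 as lower (limma, adjusted p under 0.05). The sum of 8 T cell markers did not exceed 16.9. That of 7 NK cell markers was 58.8 to 63.6, 40.9 to 47.6, 184 to 187 and 135 to 141, and that of 6 B cell markers ran from 34.8 to 51.7 over all libraries. Platelet markers (6 genes) summed to 199 to 240, 202 to 224, 115 to 211 and 92.7 to 106, and red blood cell genes (7 genes) to 282 to 338, 299 to 308, 111 to 177 and 119 to 183. Within the latter list the hemoglobin gene Hba-a1 rose with RBCs in HSCs, from 0.0826 and 1.398 FPKM to 116 and 88.7 FPKM. In LSK cells it rose from 0.864 and 1.53 FPKM to 32.9 and 43.1 FPKM. Not all genes of the list followed. Hbb-b2 was lower in HSCs, at 279 and 335 FPKM without and 120 and 158 FPKM with RBCs. Hbb-b1 rose in HSCs but was lower in LSK cells, from 0.907 and 2.12 FPKM to 0.0438 and 0.0145 FPKM. Hbb-bs went the other way in LSK cells, from 0.00522 and 0.172 FPKM to 18.9 and 19.4 FPKM. In HSCs Hbb-bs was at 0.0123 and 0.0386 FPKM without and 0.00753 and 19.1 FPKM with RBCs. How reads were divided among the beta globin genes was not tested, so no single one of them stands for beta globin RNA. Of 6 tested, 3 passed as higher in HSCs and 1 in LSK cells, 0 as lower (limma, adjusted p under 0.05). Of all genes 1.57% and 2.32% rose. The part of these other cells in the results below was not tested, and in such bulk RNA a smaller number of cells of a type cannot be told apart from less RNA per cell.

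All 10 genes were expressed in all 8 libraries and ran from among the most abundant transcripts to the middle of the list. B2m was the highest, at 2916 to 3589 FPKM, and its group means ranked from 11 to 19 among all symbols. H2-D1 followed at 1889 to 2135 FPKM (ranks 30 to 36) and H2-K1 at 1594 to 1765 FPKM (ranks 38 to 54). The order B2m, H2-D1, H2-K1 held with no overlap between the ranges of the 3 chains. Psmb8 lay at 598 to 719 FPKM and Psmb9 at 273 to 326 FPKM, again without overlap. Psmb10 (155 to 171 FPKM) stood just above Tapbp (135 to 153 FPKM), and the range of Tap2, 92.9 to 272 FPKM, spanned both. Tap1, the partner of Tap2 in the transporter, lay at 78.3 to 109 FPKM and overlapped the lower end of Tap2. Nlrc5, the transactivator, was the lowest by a wide margin, at 6.11 to 8.20 FPKM, with group means ranked from 7651 to 8264. Together the 10 genes took 1.14% to 1.31% of all FPKM in a library, most of it in the 3 chains.

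**Figure D1:**
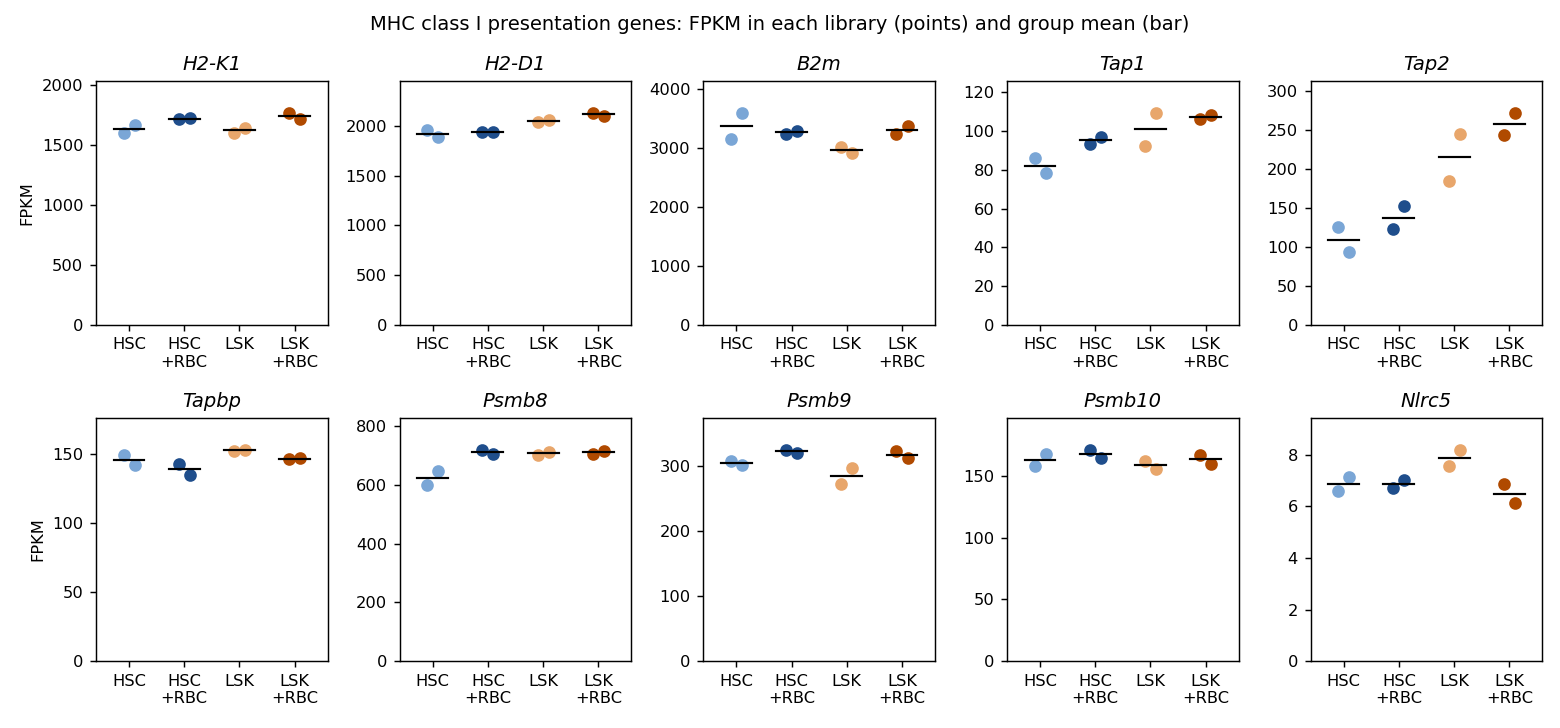
FPKM of the 10 genes (linear vertical axes from 0, 1 panel per gene) in HSCs and LSK cells cultured without or with RBCs; points are the 2 libraries of a group and bars their mean. The points of Tap2 run from 92.9 to 152 in HSCs and from 185 to 272 in LSK cells, while those of H2-K1 stay between 1594 and 1765 in all groups.

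Most of the genes varied little. The SD of log2(FPKM + 1) over the 8 libraries was 0.053 for H2-K1, 0.063 for H2-D1, 0.059 for Tapbp and 0.048 for Psmb10, against a median of 0.183 over the 12003 genes tested. Of all genes tested, 0.891% had a smaller SD than H2-K1 and 0.533% a smaller SD than Psmb10. Whether this spread is small for genes of such levels was not tested. The SD was 0.094 for B2m, 0.094 for Psmb8, 0.083 for Psmb9, 0.112 for Nlrc5 and 0.169 for Tap1. Tap2 stood apart with 0.560, above 94.9% of the genes tested.

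The first question was whether coculture with RBCs changed class I presentation. No member passed the test: 0 of 10 were called in HSCs and 0 of 10 in LSK cells, against 2.53% of all genes in HSCs and 3.45% in LSK cells (limma on log2(FPKM + 1), adjusted p under 0.05 after Benjamini-Hochberg adjustment over 12003 genes). The estimates were small. In HSCs 8 members had a higher and 2 a lower estimate with RBCs, with a median log2 fold change of 0.06 (all genes -0.01), and in LSK cells the counts were again 8 and 2, with a median of 0.07 (all genes -0.01). Over the 10 genes the 95% intervals, turned to folds, reached from 0.822 to 1.64 in HSCs and from 0.691 to 1.57 in LSK cells, so that a 2-fold change of any member lay outside its interval in either cell type. Averaged over both cell types, 0 of 10 passed (5.37% of all genes). With an unadjusted p under 0.05 there were 2 of 10 in HSCs (13.7% of all genes), 1 of 10 in LSK cells (18.6%) and 4 of 10 in the average (18.6%).

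**Figure D2:**
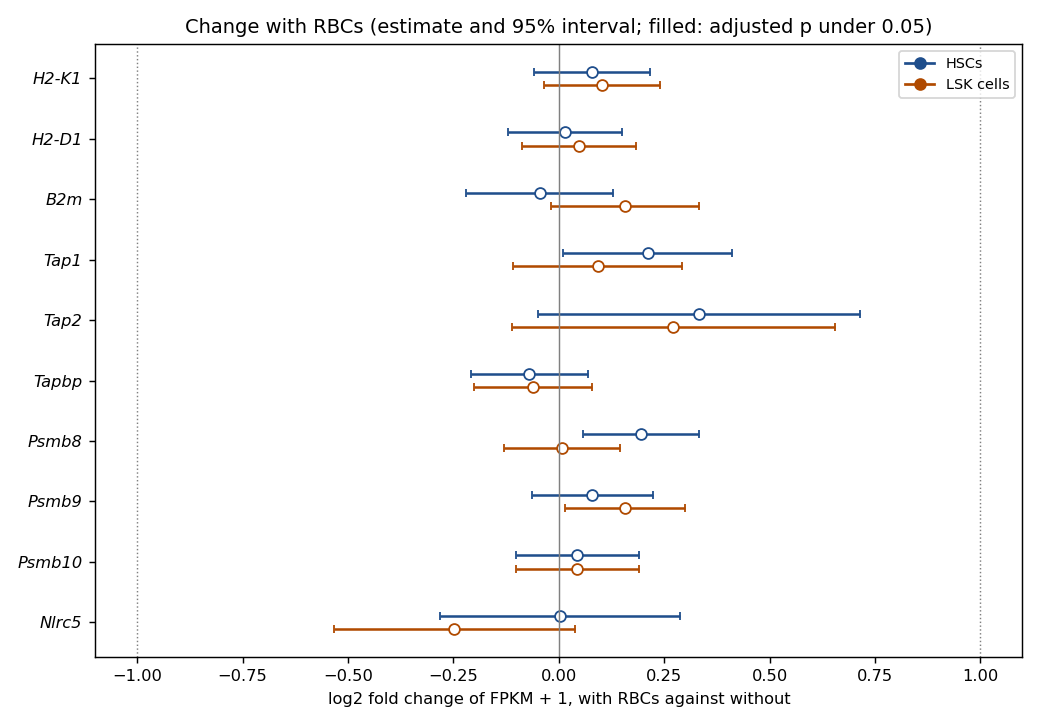
Log2 fold change of FPKM + 1 with RBCs against without (horizontal axis) for each gene in HSCs (blue) and LSK cells (orange), with 95% intervals from limma; filled points would mark an adjusted p under 0.05 and dotted lines mark a 2-fold change. All points are open, and the widest intervals are those of Tap2 and Nlrc5.

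Of the class I chains, H2-K1 was measured in HSCs at 1594 and 1660 FPKM without RBCs and at 1717 and 1719 FPKM with RBCs, and in LSK cells at 1600 and 1641 FPKM without and 1765 and 1712 FPKM with RBCs. Both libraries with RBCs thus lay above both libraries without, in either cell type, by a small margin. The log2 fold change was 0.08 (95% interval -0.06 to 0.22, adjusted p = 0.667, limma) in HSCs and 0.10 (-0.04 to 0.24, adjusted p = 0.415) in LSK cells. H2-D1, at 1958 and 1889 FPKM without and 1944 and 1941 FPKM with RBCs in HSCs, overlapped between the groups. In LSK cells it was at 2039 and 2058 FPKM without and at 2135 and 2102 FPKM with RBCs, a log2 fold change of 0.05 (adjusted p = 0.723, limma). B2m, the light chain that every class I molecule needs, was at 3150 and 3589 FPKM in HSCs alone and at 3230 and 3285 FPKM with RBCs. In LSK cells B2m was at 3002 and 2916 FPKM without and at 3227 and 3374 FPKM with RBCs. The B2m libraries overlapped in HSCs and were apart in LSK cells, where the log2 fold change was 0.16 (-0.02 to 0.33, adjusted p = 0.317, limma).

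Among the loading genes, Tap1 rose in neither cell type past the test. Its FPKM in HSCs was 86.2 and 78.3 without and 93.5 and 97.0 with RBCs, the latter pair above the former, with a log2 fold change of 0.21 (0.01 to 0.41, unadjusted p = 0.0413, adjusted p = 0.334, limma). In LSK cells Tap1 was at 92.5 and 109 FPKM without and at 106 and 108 FPKM with RBCs, so that the groups overlapped. Tap2 had the largest estimates of the 10 genes and also the widest scatter. It was at 126 and 92.9 FPKM without and 122 and 152 FPKM with RBCs in HSCs, and at 185 and 245 FPKM without and 244 and 272 FPKM with RBCs in LSK cells. The groups overlapped in both cell types. Its log2 fold change with RBCs was 0.33 (-0.05 to 0.71, adjusted p = 0.454, limma) in HSCs and 0.27 (-0.11 to 0.65, adjusted p = 0.438) in LSK cells, and single libraries decided its size: it ran from 0.12 (without replicate 2 of the HSC controls) to 0.55 (without replicate 1) in HSCs, and from 0.07 (without replicate 1 of the LSK controls) to 0.47 (without replicate 2) in LSK cells. Tapbp, the tapasin gene, had estimates below 0 in both, -0.07 (-0.21 to 0.07) in HSCs and -0.06 (-0.20 to 0.08) in LSK cells.

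The immunoproteasome subunits replace 3 catalytic subunits of the standard proteasome in interferon-exposed and immune cells. Psmb8, which encodes LMP7, was at 598 and 645 FPKM in HSCs alone and at 719 and 703 FPKM with RBCs. In LSK cells it was at 700 and 712 FPKM without and at 704 and 714 FPKM with RBCs. The HSC libraries were apart and the LSK libraries overlapped, and HSCs without RBCs were below the other 6 libraries. Its log2 fold change was 0.20 (0.06 to 0.33, unadjusted p = 0.0108, adjusted p = 0.168, limma) in HSCs and 0.01 (-0.13 to 0.15, adjusted p = 0.966) in LSK cells. Under quantile normalization the HSC value passed (adjusted p = 0.0356). Psmb9, which encodes LMP2, was at 309 and 303 FPKM in HSCs alone and at 326 and 321 FPKM with RBCs, and in LSK cells at 273 and 298 FPKM without and 324 and 313 FPKM with RBCs. Psmb9 and H2-K1 were the 2 members whose 4 libraries with RBCs all lay above their 4 libraries without, as was so for 3.13% of all genes tested. The log2 fold change of Psmb9 was 0.08 (-0.06 to 0.22, adjusted p = 0.681, limma) in HSCs and 0.16 (0.01 to 0.30, unadjusted p = 0.0348, adjusted p = 0.228) in LSK cells. Psmb10, which encodes MECL-1, was at 158 and 168 FPKM without and 171 and 164 FPKM with RBCs in HSCs, and at 161 and 155 FPKM without and 167 and 160 FPKM with RBCs in LSK cells. Its groups overlapped and its log2 fold change was 0.04 in both cell types.

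Nlrc5, which drives class I genes as CIITA drives class II genes, was at 6.60 and 7.15 FPKM in HSCs alone and at 6.73 and 7.04 FPKM with RBCs. In LSK cells it was at 7.56 and 8.20 FPKM without and at 6.85 and 6.11 FPKM with RBCs. The HSC libraries overlapped, while both LSK libraries with RBCs lay below both without. The log2 fold change was 0.00 (-0.28 to 0.29, adjusted p = 0.997, limma) in HSCs and -0.25 (-0.53 to 0.04, adjusted p = 0.331) in LSK cells. At a few FPKM the log2(FPKM + 1) scale slightly understates such changes.

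Whether the RBC effect differed between HSCs and LSK cells was tested as the interaction of the same fit. None of the 10 members passed (0.133% of all genes did), and 0 of 10 had an unadjusted p under 0.05 (12.5% of all genes did). The lowest p was that of Psmb8, whose log2 fold change was 0.19 larger in HSCs than in LSK cells (-0.01 to 0.38, unadjusted p = 0.0576, adjusted p = 0.417, limma). The intervals of the difference over the 10 genes reached from 0.717 to 1.57 as folds.

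The second question was how class I genes differ between HSCs and the wider LSK population. Tap2 was the exception among otherwise similar levels. Its 4 HSC libraries ranged from 92.9 to 152 FPKM and its 4 LSK libraries from 185 to 272 FPKM, so that the cell types did not overlap whatever the culture. The log2 fold change of LSK cells against HSCs was 0.97 (SE 0.170, 95% interval 0.59 to 1.36, adjusted p = 0.0060, limma) without RBCs and 0.91 (SE 0.170, 0.53 to 1.29, adjusted p = 0.00514) with RBCs. Tap2 was the single member called in either comparison, 1 of 10, where 14.2% of all genes were called without RBCs and 24.4% with RBCs. Averaged over culture conditions it was 0.94 (SE 0.120, 0.67 to 1.21, adjusted p = 4.42e-04, limma), just under 2-fold, and 2 of 10 members were called, Tap2 and Tap1, against 32.9% of all genes. Without any 1 of the 8 libraries Tap2 kept an adjusted p of at most 0.0461 in all 3 comparisons. The antisense genes that overlap Tap2 have no value of their own in the files, so their share in its FPKM was not tested.

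Tap1 was higher in LSK cells by 0.23 on the log2 scale (SE 0.0629, 0.09 to 0.37, adjusted p = 0.021, limma) when averaged over culture conditions, although its libraries overlapped, from 78.3 to 97.0 FPKM in HSCs and from 92.5 to 109 FPKM in LSK cells. This call was weak: the adjusted p was 0.052 with no filter on low values and 0.060 with no trend. It also rose to between 0.0531 and 0.0680 without replicate 2 of the HSC controls, replicate 1 of HSCs with RBCs, replicate 2 of the LSK controls or either library of LSK cells with RBCs. The ratio of Tap2 to Tap1 FPKM, a comparison within each library, was 1.19 to 1.57 in HSCs and 2.0003 to 2.511 in LSK cells, again without overlap. Tapbp, the third loading gene, had an averaged log2 fold change of 0.07 (-0.03 to 0.17, adjusted p = 0.232, limma).

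**Figure D3:**
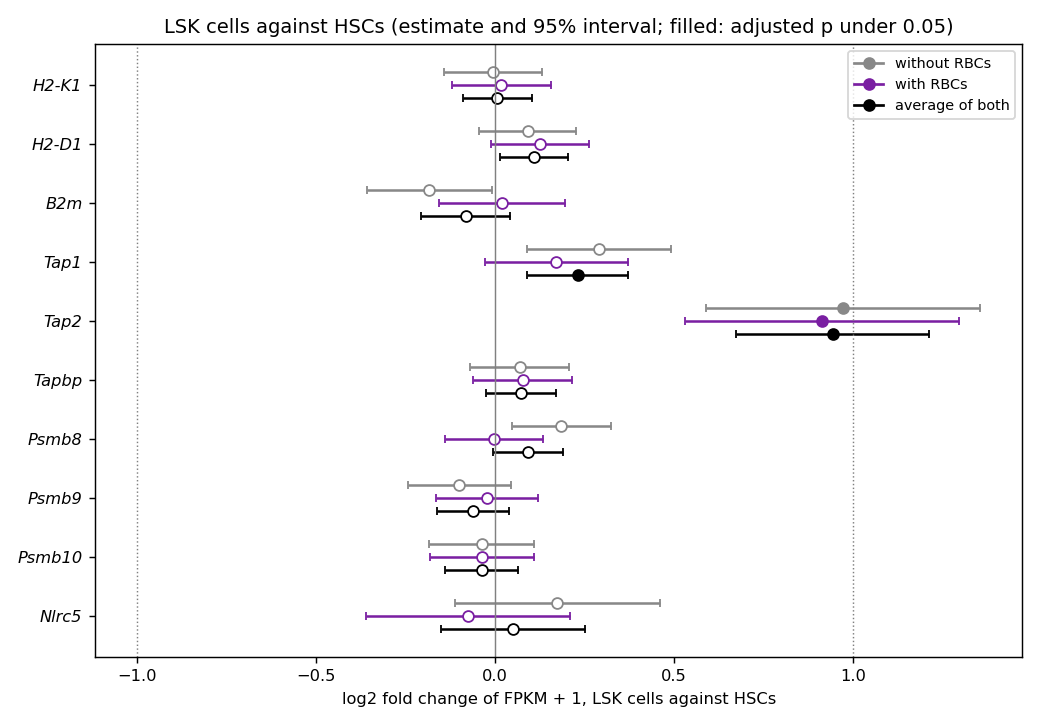
Log2 fold change of FPKM + 1 in LSK cells against HSCs (horizontal axis) without RBCs (grey), with RBCs (purple) and averaged (black), with 95% intervals from limma; filled points have an adjusted p under 0.05 and dotted lines mark a 2-fold change. Tap2 lies near 1 in all 3 comparisons, Tap1 is filled in the average, and the other points are open.

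For the class I chains the differences between cell types were small. H2-D1 was apart, with HSC libraries from 1889 to 1958 FPKM and LSK libraries from 2039 to 2135 FPKM, but the averaged log2 fold change was 0.11 (0.01 to 0.20, adjusted p = 0.0805, limma) and did not pass. H2-D1 and Tap2 were the 2 members whose LSK libraries all lay above all HSC libraries, which held for 13.6% of all genes tested. The H2-D1 value passed without replicate 1 (adjusted p = 0.0109) or replicate 2 (adjusted p = 0.0294) of the HSC controls. H2-K1 had an averaged log2 fold change of 0.01 (-0.09 to 0.10, adjusted p = 0.935, limma), the estimate nearest to 0 of the 10 genes. B2m had an estimate of -0.18 in LSK cells against HSCs without RBCs (-0.36 to -0.01, unadjusted p = 0.0413, adjusted p = 0.154, limma) and of 0.02 with RBCs (-0.16 to 0.19). The HSC controls, at 3150 and 3589 FPKM, decided this value: without the former, replicate 1, it was -0.28 with an adjusted p of 0.00878 (limma). Relative to the summed heavy chains H2-K1 and H2-D1, B2m stood at 0.882 to 1.01 in HSCs and at 0.788 to 0.885 in LSK cells, and the ratio of H2-D1 to H2-K1 ran from 1.13 to 1.23 in HSCs and from 1.21 to 1.27 in LSK cells.

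Psmb8 had an estimate of 0.18 in LSK cells against HSCs without RBCs (0.05 to 0.32, unadjusted p = 0.0144, adjusted p = 0.0782, limma) and of -0.0035 with RBCs (-0.14 to 0.13). Without replicate 2 of the HSC controls the first of these passed (adjusted p = 0.0238). Under quantile normalization Psmb8 passed in all 3 comparisons, at 0.32 (adjusted p = 0.00145, limma) without RBCs, 0.14 (adjusted p = 0.0395) with RBCs and 0.23 (adjusted p = 4.95e-04) averaged. Psmb9 had an averaged estimate of -0.06 (-0.16 to 0.04), Psmb10 of -0.04 (-0.14 to 0.06) and Nlrc5 of 0.05 (-0.15 to 0.25), and none of these passed. Thus 8 of the 10 members were not called between the cell types in any of the 3 comparisons.

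Each immunoproteasome subunit was then set against the constitutive subunit whose place it takes. The FPKM ratio Psmb8/Psmb5 was 1.68 and 1.66 in HSCs alone, 1.97 and 1.82 in HSCs with RBCs, 1.79 and 2.01 in LSK cells alone and 2.097 and 2.119 in LSK cells with RBCs. The ratio Psmb9/Psmb6 was 0.806 and 0.745, 0.831 and 0.795, 0.790 and 0.871, and 0.977 and 0.999 in the same order. The group means of both ratios were lowest in HSCs alone and highest in LSK cells with RBCs. Psmb10/Psmb7 stayed between 1.36 and 1.53 with no such order. Single libraries of Psmb9/Psmb6 overlapped: 0.806 in HSCs alone lay above 0.795 in HSCs with RBCs and 0.790 in LSK cells alone. Over 4 libraries against 4, the log2 ratio of Psmb8/Psmb5 was 0.17 higher in LSK cells than in HSCs and 0.17 higher with RBCs than without (two-sided exact permutation test, adjusted p = 0.229 for each over the 6 tests). That of Psmb9/Psmb6 was 0.19 higher in LSK cells (exact permutation test, adjusted p = 0.229) and 0.16 higher with RBCs (adjusted p = 0.257). Psmb9 itself was not higher in LSK cells: its mean FPKM there was 0.960 of that in HSCs, and that of Psmb6 was 0.840. The higher ratio in LSK cells thus went with a lower denominator. For Psmb10/Psmb7 the differences were 0.05 and -0.03 (exact permutation test, adjusted p = 0.343 and 0.486). None of the 6 passed. The smallest unadjusted p such a test allows is 0.0286, and 2 libraries against 2 cannot go below 0.333. A lone ratio at the limit of 0.0286 would not have passed after adjustment over the 6 tests, so the lack of a pass decides little.

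**Figure D4:**
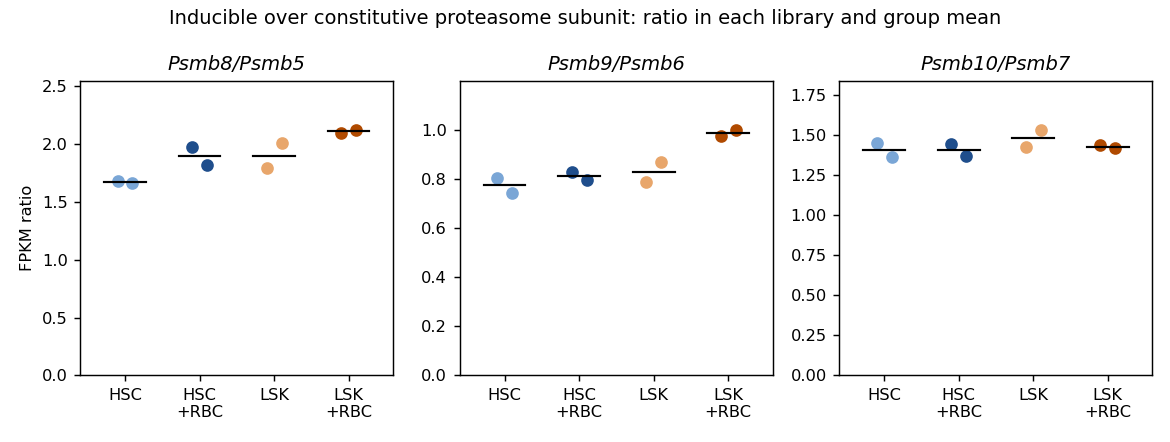
FPKM ratio of each immunoproteasome subunit to the constitutive subunit it replaces (vertical axes from 0) in every library; points are the 2 libraries of a group and bars their mean. Psmb8/Psmb5 runs from 1.66 in HSCs alone to 2.12 in LSK cells with RBCs and Psmb9/Psmb6 from 0.745 to 0.999, while Psmb10/Psmb7 shows no such order. The Psmb9/Psmb6 points of HSCs alone overlap those of HSCs with RBCs and of LSK cells alone. Mean FPKM of Psmb6 in LSK cells was 0.840 of that in HSCs, and that of Psmb9 was 0.960.

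The wider pathway was described with lists that were chosen with earlier results of these data known. Between the cell types and averaged over culture conditions, the non-classical class I chains changed in both directions: of 12 tested, 5 were higher in LSK cells (median of the list 0.18, all genes 0.01) and 3 were lower. Of all genes 16.1% were called higher and 16.8% lower in this comparison, and these shares are the background for the counts that follow. Cd1d1, which presents lipids to NKT cells, was at 28.1 to 35.7 FPKM in HSCs and at 56.9 to 64.5 FPKM in LSK cells, a log2 fold change of 0.92 (adjusted p = 1.12e-05, limma). Fcgrt, the heavy chain of the neonatal Fc receptor, went the other way, from 14.3 to 22.9 FPKM in HSCs to 6.67 to 8.33 FPKM in LSK cells (-1.13), and so did Hfe, the hemochromatosis protein that controls iron uptake (-0.63). All of these pair with beta-2 microglobulin. H2-T23, the Qa-1 chain read by NKG2A on NK cells, was higher in LSK cells (0.31), and H2-T22 was lower (-0.42). Of 11 other loading and trimming genes 3 were higher in LSK cells, among them the chaperone Calr (0.30) and the tapasin relative Tapbpl (0.20), and Sec61g was lower (-0.22).

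Of the 3 constitutive catalytic subunits 1, Psmb6, was lower in LSK cells (-0.25), of the 11 other 20S subunits 4 were lower, among them Psma7 (-0.21) and Psmb2 (-0.19), and of the 6 activators and assembly factors 3 were lower, with Psme2, a subunit of the interferon-induced PA28 cap, at -0.30 and Pomp, which assembles the immunoproteasome, at -0.19. Of the 15 regulators, Irf8, a factor of myeloid and dendritic lineages, had the largest difference, at 5.28 to 6.19 FPKM in HSCs and 38.5 to 59.3 FPKM in LSK cells (2.84, adjusted p = 4.11e-07, limma). Irf7 was lower in LSK cells, at 3.18 to 3.74 FPKM against 7.81 to 14.3 FPKM in HSCs (-1.32), while Stat2 (0.40) and Irf1 (0.18) were higher. Of the interferon receptors and signalling genes Ifngr1 (0.41), Ifnar2 (0.25) and Socs3 (0.69) were higher in LSK cells, and Ifng was listed at 0 in all 8 libraries. Ifnb1 was above 0 only in replicate 1 of HSCs with RBCs (0.137 FPKM) and replicate 1 of LSK cells with RBCs (0.618 FPKM), and it was not tested.

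With RBCs few genes of these lists passed. Of all genes 1.57% rose in HSCs, 2.32% in LSK cells and 3.38% in the average. Socs3, the feedback inhibitor of cytokine receptors, rose in both cell types, from 6.83 and 6.76 FPKM to 12.4 and 12.3 FPKM in HSCs (log2 fold change 0.77, adjusted p = 0.0178, limma) and from 7.93 and 9.90 FPKM to 24.1 and 28.9 FPKM in LSK cells (1.48, adjusted p = 6.87e-04). In LSK cells Ifngr1 (0.38), the chain H2-T10 (0.62) and the class II chains H2-Aa (0.71) and H2-Ab1 (0.38) also rose. None of the 15 regulators and none of the proteasome lists had a member that passed in either cell type or in the average. In the average over both cell types the non-classical chain H2-M3 (0.40), the chaperone Hspa5 (0.23), Sec61g (0.22), Jak2 (0.34) and H2-DMa (0.20), which loads class II molecules, rose as well. Of 6 guanylate-binding protein genes, a family induced by interferon that was added after its values were seen, 3 rose in both cell types. Gbp4 went from 5.81 and 5.75 FPKM to 25.2 and 25.6 FPKM in HSCs (1.96) and from 5.26 and 9.57 FPKM to 33.6 and 31.0 FPKM in LSK cells (2.03), and Gbp6 (1.82 and 1.91) and Gbp9 (1.27 and 1.53) also rose in both. The other 3 did not pass, with estimates of -0.25 and 0.03 for Gbp2, -0.28 and 0.02 for Gbp3 and -0.12 and 0.26 for Gbp7 in HSCs and LSK cells.

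**Figure D5:**
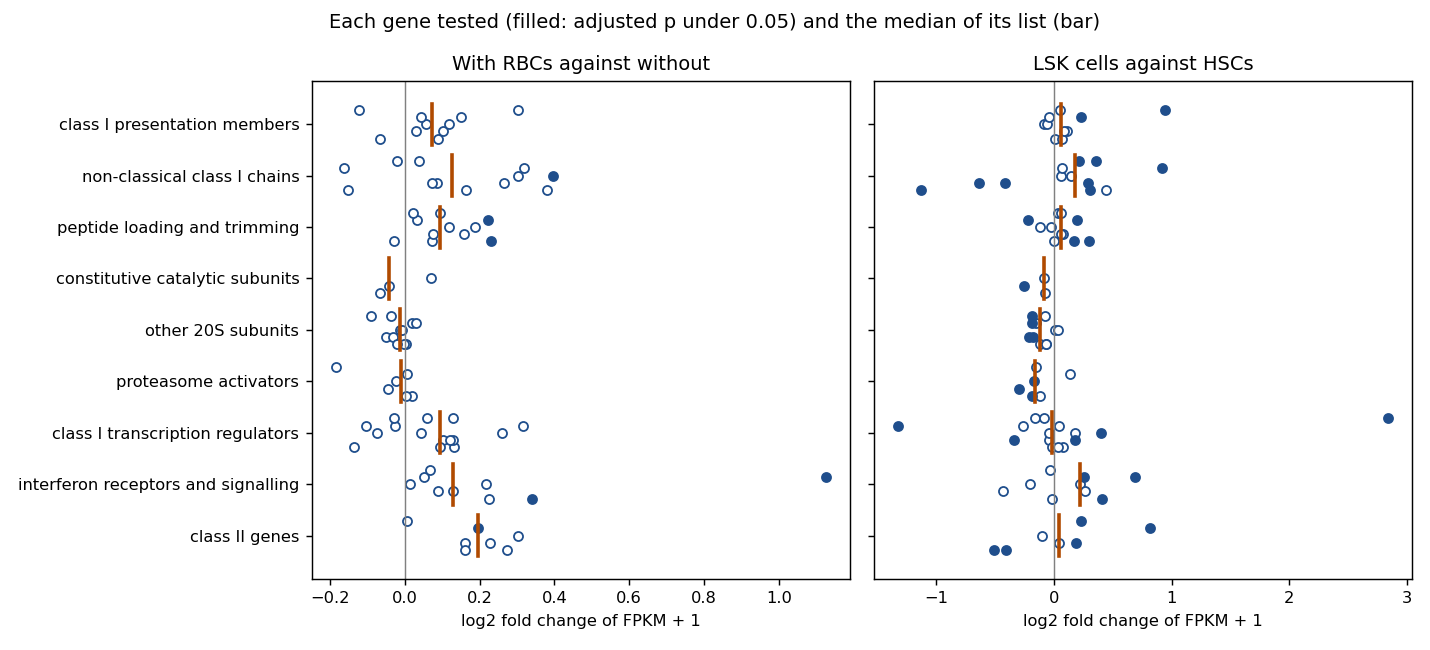
Log2 fold change of FPKM + 1 for each tested gene of 9 lists (rows), averaged over both cell types for RBCs (left) and over culture conditions for LSK cells against HSCs (right); filled points have an adjusted p under 0.05 by limma and vertical bars are list medians. The row of the 10 class I presentation genes has no filled point on the left and 2, Tap2 and Tap1, on the right.

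The 5 genes outside the 10 whose standardised profile over the 8 libraries was nearest to the mean profile of the members were Ankrd44 (root mean square difference 0.233), Gna15 (0.248), Ms4a6d (0.258), Erp29 (0.263) and Mtmr6 (0.287). Erp29, for one, ran from 155 FPKM in HSCs alone to 211 FPKM in LSK cells with RBCs. The members themselves lay at 0.538 (Tap1) to 1.375 (B2m) from this mean, so it describes some of them less closely than others. The 5 genes were picked as the nearest of all genes tested, so that they lie nearer than the members follows from that choice. Whether the members lie nearer than other genes was not tested. The 8 libraries share 4 groups, so this likeness is a description of those groups.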

How the data were processed

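RNA of 8 libraries in 4 groups (HSC or LSK, without or with RBCs) was analysed, with groups taken from the sample labels. The authors deposited FPKM per gene symbol, 1 file per library, made with TopHat2 2.1.1, Bowtie2 2.2.8, SAMtools 0.1.18 and Cuffdiff 2.2.1 on mm10 per the submitters' processing notes; the annotation is not given in the sources used here. Replicates were not pooled. FPKM keeps no absolute depth, so no counting intervals were given.

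The 12003 of 24346 symbols with at least 1 FPKM in at least 2 libraries were fitted together as log2(FPKM + 1) with limma 3.58.1 (R 4.3.3), 1 mean per group, a mean-variance trend and no replicate block, with 4 residual and 5.18 prior degrees of freedom. All 10 members passed the filter. Fold changes on this scale understate those of low genes. A call is an adjusted p under 0.05 (Benjamini-Hochberg). Subunit ratios were tested by exact permutation. The procedure was tested on simulated data. The members and all gene lists were chosen with earlier results of these data known. Named were all 10 members, the partners Psmb5, Psmb6 and Psmb7, up to 5 called genes per list and comparison, and the 5 nearest profiles, except 1 called gene that is not reported here; the guanylate-binding proteins and the neighbours H2-Ob and H2-L were added after their values were seen. Positions came from GENCODE M21 (GRCm38) and promoters from RefSeq (GRCm38.p6).

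Alternatives covered the pseudocount, the filter, the scaling, the groups in the fit, the trend, a replicate block, a 2-fold requirement and the omission of each library.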

Additional observations from a re-analysis of the deposited data

How the results depend on the processing

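Over 17 settings 1160 values of members were compared with those reported; 49 changed sign, none of them a called value, and 48 moved by more than 1 SD of a library. Under quantile normalization the number of members called was 1 for RBCs in HSCs (Psmb8), 1 for RBCs averaged (H2-K1), 2 for LSK cells against HSCs without RBCs, 2 with RBCs and 5 averaged. For LSK cells against HSCs it was 2 with RBCs when the fit held only the groups compared (H2-D1), 1 averaged with no filter, 1 averaged with no trend, and 0 in all 3 comparisons when a call also needed 2-fold. Leaving out 1 library at a time gave 1 to 2 members without RBCs, 1 to 2 with RBCs and 1 to 4 averaged, and 0 for every RBC effect and the interaction; a group left with 1 library was assumed to vary like the others. The RBC difference of log2 Psmb10/Psmb7 ran from -0.0529 to 0.00322 in the same omissions and changed sign without replicate 2 of the LSK controls. The causes were not tested. Libraries with the same replicate number did not deviate together (correlations -0.0670 to 0.0954), so the numbers were not taken as pairs; with a replicate block the counts were 0 for each RBC effect and the interaction, 1, 1 and 2 for LSK cells against HSCs, as in the fit without it.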

Other observations

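Near Tap2 in the MHC lies H2-Ob, which encodes the beta chain of H2-O, an inhibitor of class II loading. It was named after its values were seen. It was at 7.75 and 7.88 FPKM in HSCs alone, 9.62 and 8.77 FPKM in HSCs with RBCs, 25.6 and 31.2 FPKM in LSK cells alone and 60.6 and 66.6 FPKM in LSK cells with RBCs. All LSK libraries lay above all HSC libraries, as for Tap2. The log2 fold change of LSK cells against HSCs was 2.196 averaged over culture conditions (adjusted p = 4.11e-07, limma), and that with RBCs was 1.14 in LSK cells (adjusted p = 0.0011). The symbol H2-L, that of a class I gene close in sequence to H2-D1, was listed at 33.5 to 50.05 FPKM, far below H2-D1. Its listed value was higher in LSK cells by 0.27 on the log2 scale (adjusted p = 0.0187, limma). Reads of such close copies can be assigned to the wrong gene, so this value cannot be taken as expression of H2-L. Whether these mice express H2-L at all was not tested.

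Among 7 class II genes, averaged over culture conditions, 3 were higher in LSK cells and 2 lower, where 16.1% of all genes were called higher and 16.8% lower. H2-DMa, at 116 to 138 FPKM in HSCs and 203 to 248 FPKM in LSK cells, was higher by 0.81, and Cd74, the invariant chain, was lower (-0.51). Ciita, the class II counterpart of Nlrc5, stayed at 0.366 to 1.44 FPKM in all 8 libraries and was not called in any comparison.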
